A study of Mus musculus with 18 samples.

Results

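The genes described here are the mouse TRIM family, named for the tripartite motif of a RING finger, B-box domains and a coiled coil. They were taken by name: every row of the expression table whose symbol is Trim followed by a number and at most 1 letter. The rule found 53 of 14391 rows. RefSeq lists 68 symbols of this form, and 15 of them, among them Trim9, Trim34b, Trim54 and Trim69, have no row and were not analysed here. The 35 members with a mean of at least 5 CPM (counts scaled to a common library total) over all libraries carry most of what follows. The other 18 averaged under 5 CPM.

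RNA came from 18 libraries of cultured primary tendon cells of WT mice, labelled as fibroblasts, in 6 groups of 3. Adult or neonatal tendon cells received T cell media, supernatant of stimulated adult T cells (adult supernatant below) or supernatant of stimulated neonatal T cells (neonatal supernatant). All 18 carry the same batch label, and all cells had been digested out with collagenase, passaged 2 times, frozen, thawed and cultured for 3 days before treatment. A well was started from 4 adult or 3 neonatal tendons, so tendons were pooled, and nothing in the labels tells whether a group's libraries are separate animals or wells. The p-values then measure only the spread between these libraries, which may be technical. The labels used here give neither the mouse strain nor the length of treatment.

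Depth estimated from the values was 12.7 to 17.8 M reads per library. All 8 genes of a tendon fibroblast list had rows, with a summed level of 9428 to 31912 CPM per library. With adult supernatant 6 of the 8 fell in cells of either age, and 1 rose in neonatal cells. Of 8 T cell markers, Cd3e, Cd3g, Trac and Cd2 have no row, and the other 4 summed to 2.06 to 4.49 CPM in media and to 7.97 to 26.2 CPM with adult supernatant. The 9 macrophage markers with a row, out of 11, summed to 103 to 131 CPM in media and 68.8 to 81.1 CPM with adult supernatant in adult cells and to 36.2 to 58.2 and 46.4 to 58.3 CPM in neonatal cells, with 4 and 6 of the 9 called higher and 1 lower in each. All 4 mural cell markers fell with adult supernatant in both cell ages, and their sum was 670.2 to 1122 CPM in media and 215 to 306 CPM with adult supernatant. Of 5 neuron markers 4 rose and 1 fell in both cell ages, with sums of 35.3 to 118 CPM and 186 to 344 CPM. Tubb3 rose from a mean of 24.5 to 193 CPM in adult and from 29.8 to 314 CPM in neonatal cells. Map2 fell from 12.7 to 6.59 and from 70.5 to 9.65 CPM, and the other neuron markers were scarce. Over all genes 28.2% rose and 23.9% fell with adult supernatant in adult cells, and 28.3% and 19.5% in neonatal cells. In bulk RNA, fewer cells of a type and less RNA per cell cannot be told apart. The part of other cells in the results below was not tested.

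Most TRIM proteins are ubiquitin ligases: the RING finger passes ubiquitin from a conjugating enzyme to a target, which is then degraded or changed in its activity. Many act in innate immunity, where they mark viral proteins or tune the sensors of viral RNA and DNA, and a number of them are themselves induced by interferons. Others act in transcription, at microtubules, in muscle or on membranes.

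Adult supernatant raised a run of neighbouring TRIM genes on chromosome 7 and most members known from viral sensing, and lowered Trim47, Trim59, Trim16 and Trim35. In adult cells 22 members rose and 14 fell against media, where 28.2% of all genes rose and 23.9% fell at the same threshold, an adjusted p under 0.05 in limma (a linear model fitted over all genes and all 18 libraries, with Benjamini-Hochberg adjustment). In neonatal cells 26 rose and 8 fell, where 28.3% of all genes rose and 19.5% fell. Among the 35 members of at least 5 CPM, 13 rose and 13 fell in adult cells, beside 24.5% and 28.6% of the 10583 genes at that level, and 13 rose and 8 fell in neonatal cells, beside 24.2% and 23.7%. The median log2 fold change over the measured members was 0.49 in adult and 0.51 in neonatal cells, beside 0.03 and 0.07 over all genes. Among the 35 members of at least 5 CPM it was -0.09 and 0.05, beside -0.04 and -0.003 over all genes at that level. The medians over all 53 members include some that entered the table only through their level with supernatant. The table keeps a row only where at least 3 libraries reach 1 CPM, and 7 members reach 1 CPM in no media library.

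Fewer members moved with neonatal supernatant. In adult cells 9 rose and 9 fell (16.1% and 11.2% of all genes), with a median of 0.12 beside 0.03 over all genes. Among the 35 members of at least 5 CPM the median was -0.07 there, beside -0.006 over all genes at that level. In neonatal cells 4 rose and 4 fell (10.7% and 7.62% of all genes), with a median of 0.04, as over all genes. The last count was 5 in all without library 1 or library 2 of neonatal cells with neonatal supernatant. Under quantile normalization, which moved the median of all genes to -0.10 (adult cells) and -0.11 (neonatal cells), the counts with adult supernatant became 16 higher and 15 lower in adult cells and 16 and 10 in neonatal cells, and in neonatal cells with neonatal supernatant 0 and 5.

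The most uniform rises were those of a run of neighbouring genes on chromosome 7. In RefSeq (GRCm38.p6, used for gene order since the table rests on GRCm39) the order is Trim6, Trim34a, Trim5, Trim12a, Trim34b, Trim12c, the predicted gene Gm38525, Trim30b, Trim30c, Trim30a and Trim30d, of which 9 have rows. In primates TRIM5 blocks incoming retroviral capsids, and Trim5, Trim12a and Trim12c are its rodent counterparts. Trim30a is a rodent gene whose product limits NF-κB signalling from Toll-like receptors by degrading the TAB2 and TAB3 adaptors. Trim6 makes free ubiquitin chains used by the kinase IKKε. Of these, Trim30c entered the table only through adult cells with adult supernatant, where alone it reached 1 CPM, so its rise was fixed by the filter of the table. The other 8 all rose with adult supernatant, by log2 fold changes of 1.42 (Trim5) to 3.59 (Trim30a) in adult cells and of 1.77 (Trim12a) to 4.30 (Trim30b) in neonatal cells, beside 28.2% and 28.3% of all genes that rose. Trim30b among them reached 1 CPM in 12 libraries, only 1 of them in media. It too could enter the table only through libraries with a supernatant, so its rise supports nothing. In neither cell age did a library with adult supernatant overlap one in media for any of the 8. The share of all genes without such overlap was not computed, so this describes the members only. Transcripts of this cluster are alike: Trim12a matches Trim5 at 97.1% and Trim12c at 96.0% of aligned bases, Trim12c matches Trim5 at 94.3%, and Trim30a matches Trim30d at 83.0%. Trim34a matches Trim34b, which has no row, at 98.7%. How reads were divided among such genes is set by the authors' quantification, so single values of Trim5, Trim12a, Trim12c and Trim34a are uncertain while the direction over the cluster does not rest on one of them.

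Trim30a stood at 5.31, 21.0 and 2.94 CPM in adult cells in media (libraries 1 to 3, the order used throughout) and at 75.9, 86.1 and 86.9 CPM with adult supernatant. Neonatal cells went from 15.7, 3.58 and 1.76 CPM to 37.2, 42.8 and 44.4 CPM. The media libraries spread widely, library 2 of adult cells and library 1 of neonatal cells being the high ones, yet each stayed below every library with adult supernatant of its cell age. The log2 fold changes were 3.59 ± 0.69 (± standard error; adjusted p = 3.24e-04) in adult and 3.16 ± 0.69 (adjusted p = 0.00111) in neonatal cells. Single media libraries moved the size: without the high one the changes were 4.39 and 4.04, and without library 3 they were 2.97 and 2.46, all past the threshold.

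Its neighbour Trim30d went from 7.43, 12.6 and 4.72 to 38.9, 44.4 and 44.6 CPM in adult cells (2.48 ± 0.45) and from 8.37, 2.85 and 2.42 to 29.0, 28.8 and 24.4 CPM in neonatal cells (2.82 ± 0.45). Trim34a, whose human counterpart partners TRIM5 in capsid restriction, went from 6.55, 12.9 and 5.16 to 35.7, 32.0 and 36.5 CPM in adult cells (2.19 ± 0.39) and from 10.5, 4.25 and 5.76 to 30.3, 26.1 and 25.8 CPM in neonatal cells (2.10 ± 0.39). For both genes the high media library was the same as for Trim30a. Trim12c rose from 30.3, 40.8 and 27.9 to 150.2, 175 and 126 CPM in adult cells (2.20 ± 0.23) and from 39.0, 21.3 and 25.8 to 118, 122 and 117 CPM in neonatal cells (2.10 ± 0.23). Trim12a changed by 1.97 ± 0.22 and 1.77 ± 0.22 and Trim5 by 1.42 ± 0.29 and 2.08 ± 0.29, in adult and neonatal cells. Trim6 changed by 1.48 ± 0.53 in adult cells (adjusted p = 0.0277) and by 2.09 ± 0.53 in neonatal cells. The adult call of Trim6 was lost without library 1 or 2 in media (adjusted p = 0.0804 and 0.0628) or without library 2 with adult supernatant (adjusted p = 0.121).

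The remaining pair of the cluster was scarce. Trim30b stood at 0.599, 1.01 and 0.539 CPM in adult cells in media and at 3.96, 16.4 and 3.14 CPM with adult supernatant, a change of 3.10 ± 0.63, and changed by 4.30 ± 0.63 in neonatal cells. Trim30c was at or near 0 reads in media, where the listed value of 0.127 CPM stands for no read, and reached 2.34, 1.82 and 2.77 CPM in adult and 0.699, 0.773 and 0.652 CPM in neonatal cells with adult supernatant. All listed values hold an offset of 0.127 CPM. With it taken off, both media groups of Trim30c lie under 3 reads (0.169 to 0.237 CPM by library), so no fold is given for it. Its adjusted p was 1.19e-06 in adult and 4.66e-04 in neonatal cells, and 0.324 in the latter under quantile normalization.

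**Figure D1:**
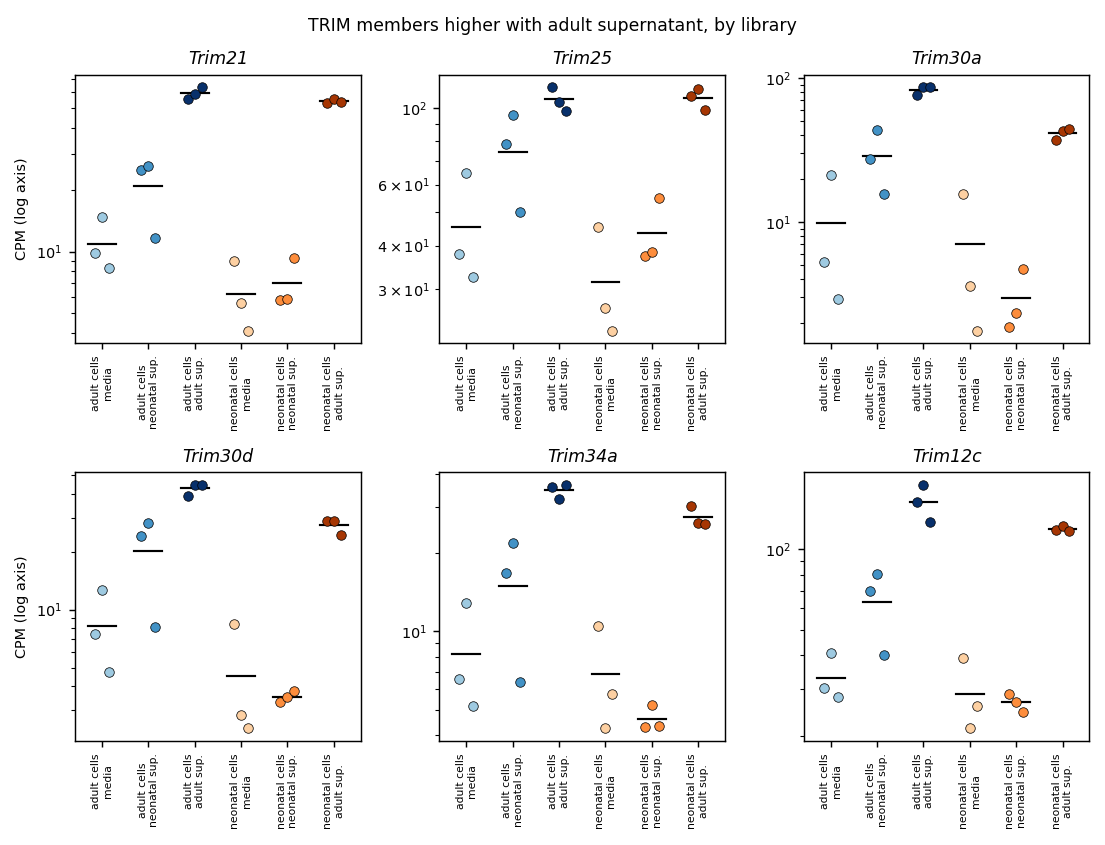
CPM on a log axis (points, 1 per library, replicates 1 to 3 from left to right; horizontal lines, arithmetic mean of 3) for Trim21, Trim25, Trim30a, Trim30d, Trim34a and Trim12c in the 6 groups. In each panel the libraries with adult supernatant lie above every media library of the same cell age, and the neonatal-supernatant libraries of adult cells lie between or overlap media.

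Promoters were searched because the cluster members moved together, and those printed below are of members with a match, beside Trim25. RefSeq (GRCm38.p6) gives 300 bases, 250 before the annotated start and 50 from it, for 38 of the 53 members. They were searched on both strands for the core of the interferon-stimulated response element, GAAANNGAAA, and for the gamma-activated site, TTCNNNGAA. The core occurred in the promoters of 9 of 38 members: Trim21, Trim34a, Trim5, Trim12a, Trim12c, Trim30a, Trim30d, Trim26 and 1 of several starts of Trim2. It occurred in 3.44% of all 32851 promoters in the table, and in 3.73% of the 10502 genes measured here that have one. The cluster members Trim6, Trim30b and Trim30c, also higher with adult supernatant, have no match to the core in this window. The windows of Trim5, Trim12a and Trim12c share long stretches around their match, as do those of Trim30a and Trim30d, so these matches are not independent. The gamma-activated site occurred in 4 of 38 members, Trim46, Trim45, Trim30c and Trim15, beside 8.30% of all promoters. In the members, no match of one motif overlapped a match of the other. A match describes these letters only and is not evidence of binding. Below, 5′ to 3′ on the strand of the gene, capitals mark the match to the core on either strand. Trim21 (chr7:102565433-102565732, minus strand) has 2 overlapping matches that begin 13 and 19 bases after the start. Trim34a (chr7:104244207-104244506, plus strand) has 1 that begins 10 bases after it. The matches of Trim12c (chr7:104353300-104353599), Trim30a (chr7:104465144-104465443) and Trim30d (chr7:104507800-104508099), all on the minus strand, begin 29, 36 and 41 bases before it. Trim25 (chr11:88999153-88999452, plus strand), which also rose with adult supernatant, has none in this window and is shown for contrast.
Trim21: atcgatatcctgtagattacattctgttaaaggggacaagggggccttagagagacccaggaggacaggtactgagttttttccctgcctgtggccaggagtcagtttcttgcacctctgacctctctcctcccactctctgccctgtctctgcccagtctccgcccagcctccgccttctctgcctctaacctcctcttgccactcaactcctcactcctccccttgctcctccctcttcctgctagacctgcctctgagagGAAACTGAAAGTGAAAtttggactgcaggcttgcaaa
Trim34a: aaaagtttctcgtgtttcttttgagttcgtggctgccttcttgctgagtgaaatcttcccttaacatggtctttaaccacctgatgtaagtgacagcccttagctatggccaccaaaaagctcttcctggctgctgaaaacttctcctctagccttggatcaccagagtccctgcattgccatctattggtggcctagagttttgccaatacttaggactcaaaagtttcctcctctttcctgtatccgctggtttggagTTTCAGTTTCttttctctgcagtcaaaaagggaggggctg
Trim12c: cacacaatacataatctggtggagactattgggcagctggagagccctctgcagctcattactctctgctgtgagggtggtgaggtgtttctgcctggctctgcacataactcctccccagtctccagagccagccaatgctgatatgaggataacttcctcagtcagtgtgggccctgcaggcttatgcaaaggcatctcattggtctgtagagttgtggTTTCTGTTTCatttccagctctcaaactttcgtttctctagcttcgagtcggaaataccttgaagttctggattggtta
Trim30a: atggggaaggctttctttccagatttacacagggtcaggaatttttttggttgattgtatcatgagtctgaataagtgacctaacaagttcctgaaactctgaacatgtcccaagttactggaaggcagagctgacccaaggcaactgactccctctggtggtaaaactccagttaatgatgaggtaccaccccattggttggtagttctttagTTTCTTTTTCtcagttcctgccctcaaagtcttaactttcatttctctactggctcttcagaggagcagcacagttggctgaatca
Trim30d: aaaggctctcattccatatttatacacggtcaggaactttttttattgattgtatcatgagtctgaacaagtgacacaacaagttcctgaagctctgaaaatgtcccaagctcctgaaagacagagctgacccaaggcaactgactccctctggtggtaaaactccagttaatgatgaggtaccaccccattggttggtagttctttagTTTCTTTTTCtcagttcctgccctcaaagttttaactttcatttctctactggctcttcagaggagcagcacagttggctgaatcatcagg
Trim25: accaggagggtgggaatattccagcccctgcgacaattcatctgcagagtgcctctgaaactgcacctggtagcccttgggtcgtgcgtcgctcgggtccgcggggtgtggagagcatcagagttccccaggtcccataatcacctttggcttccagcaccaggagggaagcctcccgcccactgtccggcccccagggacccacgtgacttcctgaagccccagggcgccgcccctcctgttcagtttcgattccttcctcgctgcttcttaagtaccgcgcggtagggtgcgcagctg

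With neonatal supernatant 3 of 9 members of the cluster passed as higher in adult cells and 1 of 9 in neonatal cells, where 16.1% and 10.7% of all genes did. Both counts include Trim30b, which could enter the table only through libraries with a supernatant. Trim12c stood at 69.6, 80.5 and 40.1 CPM (0.90 ± 0.23 against media, adjusted p = 0.00751) and Trim30b at 8.58, 5.75 and 2.41 CPM (2.84 ± 0.63, adjusted p = 0.00266). Trim30a stood at 27.4, 43.6 and 15.5 CPM, a change of 1.94 ± 0.69 whose adjusted p of 0.0452 went above 0.05 without any single one of 13 libraries, up to 0.208 without library 3 of adult cells in media. Its size was 1.32 without that library and 2.74 without library 2 in media. In all 6 members of at least 5 CPM, library 3 of adult cells with neonatal supernatant was the lowest of its group. In neonatal cells only Trim30b passed (2.20 ± 0.63, adjusted p = 0.0209), and its call was lost without library 2 or 3 in media or library 1 or 2 with neonatal supernatant (adjusted p = 0.0606 to 0.109). Trim30a was at 1.86, 2.32 and 4.70 CPM there and did not pass. Set directly against each other, neonatal supernatant gave lower levels than adult supernatant for 5 of 9 in adult cells and for 9 of 9 in neonatal cells, where 13.5% and 18.7% of all genes were lower. Both counts include Trim30c, which entered the table only through adult cells with adult supernatant, so its lower level in adult cells was fixed by the filter. The lower calls include Trim30d in adult cells, whose call was lost without any single one of 11 libraries (adjusted p up to 0.247), and Trim30b in neonatal cells, lost without any single one of 3 (adjusted p up to 0.101). In adult cells these included Trim12a (-1.49 ± 0.22), Trim12c (-1.29 ± 0.23) and Trim34a (-1.39 ± 0.39), and in neonatal cells Trim30a (-3.92 ± 0.69), Trim30d (-2.95 ± 0.45) and Trim34a (-2.57 ± 0.39). The difference of Trim34a in adult cells shrank to -0.86 (adjusted p = 0.0837) without library 3 with neonatal supernatant. In the fit described here no member of the cluster passed the test of the difference in response between cell ages for either supernatant. Exceptions among the alternatives were Trim12a (-1.06, neonatal minus adult cells) and Trim12c (-1.27) for neonatal supernatant without library 3 of adult cells with neonatal supernatant, and the scarce Trim30c for adult supernatant, which passed with no variance trend (adjusted p = 0.0178) and with a pseudocount of 1 CPM (adjusted p = 0.014).

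The libraries that stood apart within a group did so together with a list of genes induced by type I interferon, chosen outside the family (14 measured, such as Ifit1, Oasl2 and Oas2). With adult supernatant 12 of the 14 rose in each cell age (28.2% and 28.3% of all genes), while Mx1 fell in adult cells. The mean level of the list was 0.92, 2.50 and 0.62 log2 CPM in adult cells in media, 3.09, 3.81 and 1.43 with neonatal supernatant and 4.61, 4.65 and 4.65 with adult supernatant. In neonatal cells it was 2.39, -0.32 and -0.56 in media, -0.08, -0.07 and 0.31 with neonatal and 3.81, 3.97 and 3.87 with adult supernatant. The high media libraries and the low library 3 of adult cells with neonatal supernatant are the ones seen in the cluster. Summed over its 6 members of at least 5 CPM, the cluster was at 64.3, 109.6 and 56.3 CPM in adult cells in media, 167, 206 and 86.2 CPM with neonatal and 365, 401 and 353 CPM with adult supernatant. For neonatal cells the sums were 89.1, 48.2 and 48.2, then 50.5, 51.8 and 50.5, then 266, 276 and 260.1 CPM in the same order of treatments. The adult-supernatant sums exceeded every other library of their cell age. A list of genes induced by interferon-gamma (13 measured, such as Gbp2, Irgm1 and Cxcl9) summed to 110.4, 216 and 105 CPM in adult cells in media and to 10191, 9178 and 10957 CPM with adult supernatant. It summed to 1576, 1296 and 374 CPM in adult cells with neonatal supernatant and to 201, 66.3 and 76.7 CPM in neonatal cells in media. The same libraries thus stood apart in it. In neonatal cells the interferon-gamma list summed to 146, 165 and 211 CPM with neonatal and to 8586, 8860 and 8555 CPM with adult supernatant. With neonatal supernatant in these cells 3 of its 13 genes rose (10.7% of all genes). The median log2 fold change was 0.84 there, beside -0.10 over the cluster, so list and cluster parted. In the other comparisons with media both lists moved with the cluster. The part of the lists in the result was not tested. Without both high media libraries the family counts were 20 higher and 12 lower for adult cells with adult supernatant, and 24 and 9 for neonatal cells.

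**Figure D2:**
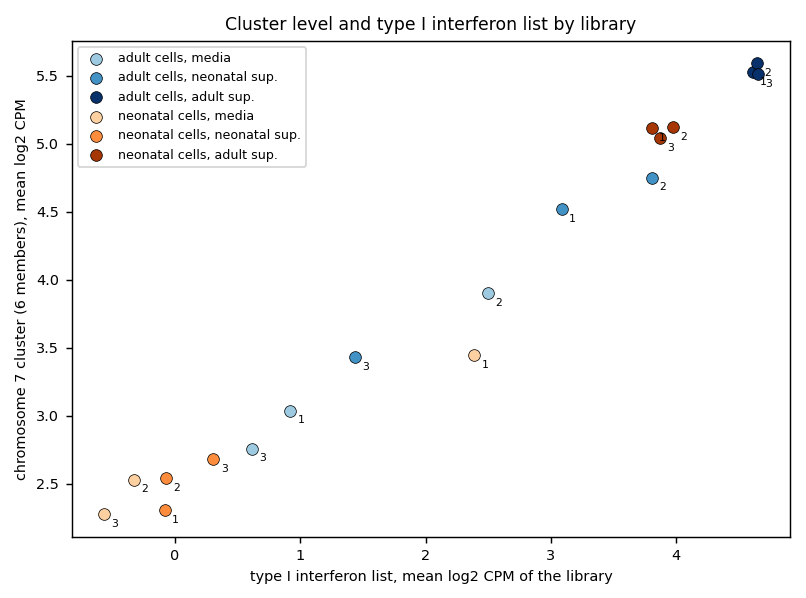
Mean log2 CPM of the 6 cluster members of at least 5 CPM (vertical axis) against the mean log2 CPM of the type I interferon list (horizontal axis), 1 point per library, labelled with its replicate number. Library 2 of adult cells in media and library 1 of neonatal cells in media lie right of and above the others of their groups, and library 3 of adult cells with neonatal supernatant lies left of and below its group.

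Among 9 members known from the sensing of viral RNA and DNA or from antiviral defence, 6 rose with adult supernatant in adult cells and 6 in neonatal cells (28.2% and 28.3% of all genes), 3 and 1 rose with neonatal supernatant (16.1% and 10.7%), and none fell. Each of these counts but the 3 includes Trim15, which reached 1 CPM only in the 6 libraries with adult supernatant and so entered the table through them. The 9 leave out Trim32, which the plan listed both here and with the NHL members and which is counted with the latter. In adult cells Trim32 passed as lower with either supernatant, from a mean of 69.2 CPM in media to 46.7 CPM with adult and 51.4 CPM with neonatal supernatant. Trim21, a cytosolic antibody receptor that sends antibody-coated virus to the proteasome, stood at 9.80, 14.7 and 8.33 CPM in adult cells in media and at 55.7, 58.7 and 63.9 CPM with adult supernatant (2.48 ± 0.31, adjusted p = 3.49e-06). In neonatal cells it went from 9.01, 5.58 and 4.11 to 53.2, 55.6 and 53.7 CPM (3.20 ± 0.31, adjusted p = 2.22e-07). The groups did not overlap in either cell age. With neonatal supernatant it was at 25.1, 26.2 and 11.6 CPM in adult cells (0.89 ± 0.31, adjusted p = 0.0397) and at 5.81, 5.88 and 9.32 CPM in neonatal cells (0.21 ± 0.31, adjusted p = 0.707). Library 3 of the former overlapped media, and the call was lost without library 1 or 3 in media or library 1 or 2 with neonatal supernatant (adjusted p = 0.108 to 0.165).

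Trim25, the ligase that adds ubiquitin chains to the RNA sensor RIG-I, went from 37.8, 65.0 and 32.5 to 115, 104 and 97.8 CPM in adult cells (1.29 ± 0.27, adjusted p = 7.67e-04). In neonatal cells it went from 45.2, 26.5 and 22.7 to 108, 113 and 98.5 CPM (1.82 ± 0.27, adjusted p = 3.49e-05). With neonatal supernatant the values were 78.6, 95.5 and 49.9 CPM in adult cells (0.74 ± 0.27, adjusted p = 0.053) and 37.3, 38.4 and 55.0 CPM in neonatal cells (0.51 ± 0.27, adjusted p = 0.222), neither past the threshold. Trim65, which ubiquitinates the RNA sensor MDA5, changed by 1.16 ± 0.21 in adult cells with adult supernatant and by 0.69 ± 0.21 in neonatal cells, the latter lost without library 1 with adult supernatant (adjusted p = 0.0507). Trim56, which acts with the DNA-sensing adaptor STING, stood at 102, 87.9 and 65.3 CPM in adult cells in media and at 152, 146 and 140.3 CPM with adult supernatant (0.81 ± 0.12). In neonatal cells Trim56 changed by 0.97 ± 0.12. Trim56 and Trim65 also passed as higher in adult cells with neonatal supernatant. That call of Trim56 was lost without any single one of 12 libraries and under 7 other alternatives (limma adjusted p up to 0.258). For Trim65 it was lost without any single one of 3 libraries and under 1 other alternative (limma adjusted p up to 0.0981). Trim26, a regulator of the interferon response, changed by 0.65 ± 0.10 and 0.82 ± 0.10 in adult and neonatal cells.

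Trim15 was scarce in media, at 0.390, 0.372 and 0.466 CPM in adult and 0.127, 0.243 and 0.127 CPM in neonatal cells, where 0.127 CPM is no read. With adult supernatant it was at 1.84, 1.78 and 1.59 CPM in adult cells (2.09 ± 0.43, adjusted p = 6.50e-04, and 0.101 under quantile normalization) and at 2.56, 2.05 and 2.74 CPM in neonatal cells (adjusted p = 1.09e-06). Trim14, an adaptor at mitochondria in RIG-I signalling, passed in no comparison. Its values ran from 0.438 to 2.14 CPM, and its largest change was -1.11 ± 0.48 between the supernatants in neonatal cells (adjusted p = 0.088). Trim23 and Trim41, at 22.5 to 32.0 and 49.1 to 67.2 CPM over all libraries, passed in none of the 9 comparisons either. Under quantile normalization 5 of the 9 rose with adult supernatant in each cell age, and none fell.

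**Figure D3:**
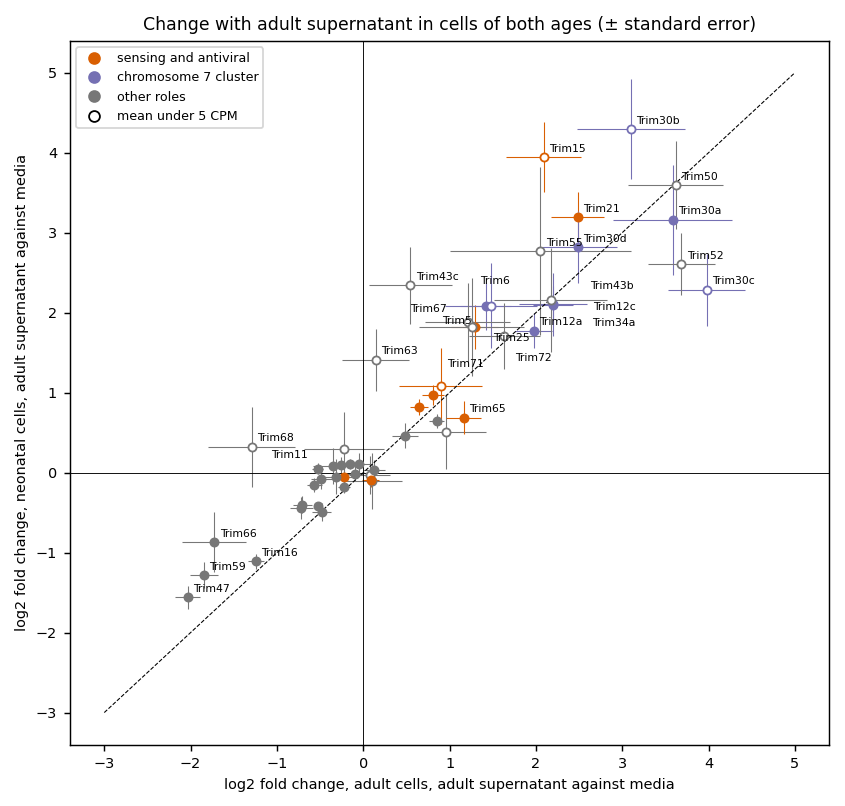
Log2 fold change with adult supernatant against media in adult cells (horizontal) and neonatal cells (vertical) for the 53 members, with bars of 1 standard error from limma; open points average under 5 CPM, and the dashed line marks equal change. Cluster and most sensing members lie at the upper right, Trim47, Trim59 and Trim16 at the lower left, and Trim11 lies left of the axis at a neonatal change near 0.

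Genes that TRIM ligases work with were examined in the same comparisons. Of 17 genes of RNA and DNA sensing, adult supernatant raised 10 in adult and 11 in neonatal cells, where 28.2% and 28.3% of all genes rose. Neonatal supernatant raised 4 and 2 of them, where 16.1% and 10.7% of all genes rose, so the last count is near the share over all genes. None of the 17 fell in these comparisons. Ifih1, which encodes MDA5, changed by 2.40 ± 0.46 in adult and 2.74 ± 0.46 in neonatal cells with adult supernatant. For RIG-I (listed under Ddx58) the changes were 1.40 ± 0.26 and 1.65 ± 0.26, and for STING (listed under Tmem173) 1.37 ± 0.11 and 1.26 ± 0.11. Traf6, itself a RING ligase upstream of NF-κB, changed by 1.15 ± 0.15 and 0.81 ± 0.15. Of 15 genes of ubiquitin and ISG15 conjugation, 7 rose and 1 fell in adult cells and 6 rose and 1 fell in neonatal cells with adult supernatant. With neonatal supernatant 3 rose and 1 fell in adult cells and 1 rose and 0 fell in neonatal cells, near the shares over all genes. Among the rises was the ISG15 branch: Uba7, its activating enzyme, changed by 3.78 ± 0.48 and 3.88 ± 0.48, and Ube2l6, its conjugating enzyme, by 3.59 ± 0.24 and 3.88 ± 0.24. Of the general ubiquitin-conjugating enzymes, Ube2d3 changed by 0.58 ± 0.06 and 0.37 ± 0.06, while Ube2d2a (0.04 and -0.06) and Uba1, the ubiquitin-activating enzyme (0.06 and 0.07), did not pass.

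Relatives of the family under other names went both ways. Pml, the TRIM protein that builds nuclear bodies, changed by 0.82 ± 0.17 and 0.87 ± 0.17 with adult supernatant. Mid2, a microtubule-bound TRIM ligase, changed by -1.59 ± 0.16 in adult and -1.69 ± 0.16 in neonatal cells given adult supernatant, then by -0.93 ± 0.16 and -0.77 ± 0.16 with neonatal supernatant. Its relative Mid1 changed by -0.39 ± 0.14 in adult cells with adult supernatant and by 0.01 in neonatal cells, where it did not pass. Mefv has no row and was not analysed here.

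The members that fell were led by Trim47, Trim59, Trim16 and Trim35, which passed as lower in all 4 comparisons of a supernatant with media. Trim47, a RING-type ligase, stood at 55.2, 47.3 and 52.5 CPM in adult cells in media, at 31.9, 30.0 and 28.5 CPM with neonatal supernatant (-0.78 ± 0.14) and at 10.3, 16.8 and 11.5 CPM with adult supernatant (-2.03 ± 0.14, adjusted p = 3.36e-09). In neonatal cells it went from 72.0, 62.8 and 58.0 CPM to 34.3, 31.0 and 30.8 CPM with neonatal (-1.0 ± 0.14) and 24.4, 20.0 and 21.0 CPM with adult supernatant (-1.56 ± 0.14). The 3 treatments did not overlap within a cell age, and adult supernatant gave the lowest levels in both.

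Trim59, a membrane-anchored ligase, went from 42.3, 26.0 and 36.4 CPM in adult cells in media to 16.7, 18.2 and 18 CPM with neonatal (-0.96 ± 0.16) and 8.85, 10.7 and 9.11 CPM with adult supernatant (-1.84 ± 0.16). In neonatal cells the values were 80.6, 67.0 and 65.1, then 38.4, 43.4 and 42.3 (-0.77 ± 0.16), then 32.9, 32.8 and 22.7 CPM (-1.28 ± 0.16). The order of treatments was the same as for Trim47. Trim16, which lacks a RING finger and takes part in the removal of damaged lysosomes, went from 79.5, 65.9 and 72.3 CPM in adult cells in media to 37.2, 35.0 and 38.5 CPM with neonatal (-0.97 ± 0.10) and 32.5, 30.6 and 28.7 CPM with adult supernatant (-1.24 ± 0.10). In their neonatal counterparts it went from 103, 109 and 90.8 to 78.9, 73.4 and 77.9 (-0.39 ± 0.10) and 52.3, 41.0 and 47.4 CPM (-1.11 ± 0.10). Trim35, a regulator of pyruvate kinase in liver cancer cells, fell by a smaller amount with little spread: -0.53 ± 0.05 and -0.45 ± 0.05 in adult cells with adult and neonatal supernatant, and -0.42 ± 0.05 and -0.37 ± 0.05 in neonatal cells. Its libraries ran from 253 to 270.1 CPM in media and from 178 to 213 CPM with supernatant, without overlap.

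**Figure D4:**
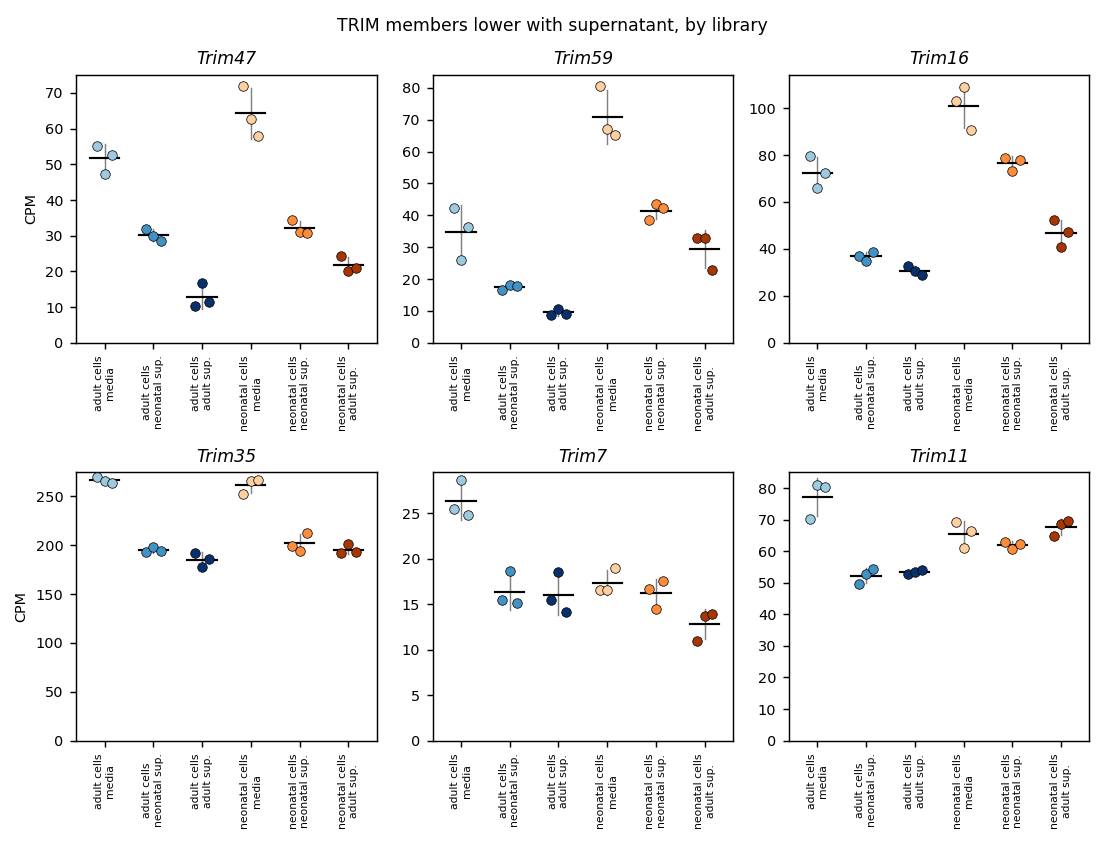
CPM (points, 1 per library; horizontal lines, mean; vertical lines, ± SD, n = 3; axes from 0) for Trim47, Trim59, Trim16, Trim35, Trim7 and Trim11 in the 6 groups. Trim47, Trim59 and Trim16 step down from media through neonatal to adult supernatant in both cell ages, and Trim11 is lower with either supernatant in adult cells while the neonatal groups lie between 60.9 and 69.6 CPM.

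Other falls were spread over several roles. Trim37, a ligase mutated in mulibrey nanism, changed by -0.71 ± 0.11 in adult and -0.40 ± 0.11 in neonatal cells with adult supernatant. Trim7, a glycogenin-binding ligase, changed by -0.72 ± 0.13 in adult cells with adult and -0.69 ± 0.13 with neonatal supernatant. Among the 4 members with NHL repeats, which bind RNA or cytoskeletal targets, Trim3 changed by -0.48 ± 0.11 and -0.49 ± 0.11 with adult supernatant, and Trim32, mutated in limb-girdle muscular dystrophy, by -0.57 ± 0.09 in adult cells and by -0.15 in neonatal cells, where it did not pass (adjusted p = 0.162). Trim2, which ubiquitinates neurofilament light chain, passed in no comparison. Of the 4 transcriptional members, Trim66 changed by -1.73 ± 0.37 in adult cells with adult supernatant. Trim28, the corepressor recruited by KRAB zinc-finger proteins, changed by only -0.22 ± 0.07 there, a call lost without library 3 in media or library 1 with adult supernatant (adjusted p = 0.0571 and 0.0867). Trim24 and Trim33, transcription regulators of the same subfamily, stayed within 29.5 to 40.3 and 22.7 to 35.6 CPM over all libraries and passed in no comparison. Trim13, which sits in the membrane of the endoplasmic reticulum, passed in none either. Trim8, which promotes NF-κB signalling through the kinase TAK1, was one of the rises outside the sensing and cluster members, from 68.4, 61.5 and 65.8 to 123, 108 and 122 CPM in adult cells (0.85 ± 0.09) and from 88.2, 77.4 and 66.4 to 114, 117 and 128 CPM in neonatal cells (0.64 ± 0.09), and to 92.5, 92.5 and 88.3 CPM in adult cells with neonatal supernatant (0.48 ± 0.09).

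A set of scarce members, several with roles in muscle, embryo or other tissues, also passed as higher. Of the 18 members under 5 CPM, 9 rose and 1 fell in adult cells and 13 rose in neonatal cells with adult supernatant. Several of them could enter the table only through the libraries where they were high, so these counts describe and support nothing. Trim52 stood at 0.462, 0.390 and 0.270 CPM in adult cells in media, 1.82, 2.17 and 0.896 CPM with neonatal and 4.33, 6.64 and 3.58 CPM with adult supernatant, and Trim50 at 0.201, 0.249 and 0.241, 1.92, 2.68 and 0.577 and 1.52, 6.39 and 2.30 CPM. Trim52 changed by 3.68 ± 0.39 with adult supernatant in adult cells and 2.61 ± 0.39 in neonatal cells, and Trim50 by 3.62 ± 0.55 and 3.60 ± 0.55. The adult media values of Trim50 lie under 3 reads once the offset is taken off, so the size of its change rests partly on the offset. Of the muscle members, Trim72, which takes part in membrane repair, changed by 1.64 ± 0.41 and 1.71 ± 0.41, and neither call held under quantile normalization (adjusted p = 0.337 and 0.829). Trim55, a muscle ring finger protein, had no read in any adult media library and 0.184, 4.04 and 0.195 CPM with adult supernatant, of which only library 2 exceeded 1 CPM, and it did not pass there. In neonatal cells Trim55 went from 0.217, 0.127 and 0.221 to 2.44, 0.403 and 1.97 CPM and passed (2.77 ± 1.05, adjusted p = 0.0379), a call lost without any single one of 5 libraries (adjusted p up to 0.133) and under quantile normalization (adjusted p = 0.314). The change was 3.58 without library 2 with adult supernatant. The neonatal media values of Trim55 also lie under 3 reads once the offset is taken off, so these sizes rest partly on the offset. The ligase of muscle atrophy, Trim63, passed as higher with adult supernatant in neonatal cells only among the supernatant comparisons (1.41 ± 0.39, adjusted p = 0.00616, and 0.881 under quantile normalization).

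Library 2 of adult cells with adult supernatant was the highest of all 18 for Trim30b, Trim50, Trim52, Trim43b, Trim55, Trim67, Trim71 and Trim36. It was also the highest for the scarce Trim14 and Trim63, and for Trim65, Trim12a and Trim12c, which average at least 5 CPM. In the same library the 64 rows of odorant and vomeronasal receptors, genes of sensory neurons, summed to 687 CPM, beside 372 and 282 CPM in libraries 1 and 3. Those rows summed to 43.7, 48.2 and 44.0 CPM in adult cells in media and 194, 168 and 136 CPM with neonatal supernatant, and to 37.0, 33.9 and 40.0, 101, 132 and 57.7 and 392, 304 and 409.8 CPM in neonatal cells in media, with neonatal and with adult supernatant. The scarce members thus moved with these rows. In media the receptor rows averaged -1.32 to -0.96 log2 CPM, under 1 CPM. Like several scarce members, rows at such levels could enter the table only through libraries with a supernatant, so the shared rise describes and supports nothing. The part of either set in the other was not tested. Without that library Trim43b in adult cells with adult supernatant missed the threshold (adjusted p = 0.0612), as did Trim67, whose call was lost without any single one of 13 libraries (0.76 in place of 1.21 without this one, adjusted p = 0.236), while Trim30b, Trim50 and Trim52 kept their calls at 2.36, 3.03 and 3.43, in place of 3.10, 3.62 and 3.68.

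Compared with each other, the supernatants differed in both directions. In adult cells 6 members were higher and 12 lower with neonatal than with adult supernatant (15.1% and 13.5% of all genes), and the median log2 difference was -0.20 beside -0.01 over all genes. In neonatal cells 4 were higher and 18 lower (13.7% and 18.7%), with a median of -0.40 beside -0.05. These medians include scarce members that entered the table only through libraries with supernatant. Among the 35 members of at least 5 CPM, 6 were higher and 9 lower in adult cells, with a median of -0.03. In neonatal cells 4 of the 35 were higher and 11 lower, with a median of -0.02. Over all genes at that level the shares were 18.6% and 15.8%, then 17.4% and 17.2%, with medians of 0.02 and 0.01. Under quantile normalization the neonatal-cell split over all members was 7 higher and 15 lower. Trim47 was higher with neonatal than adult supernatant by 1.26 ± 0.14 in adult and 0.56 ± 0.14 in neonatal cells, and Trim59 by 0.89 ± 0.16 and 0.51 ± 0.16, the latter 0.33 (adjusted p = 0.146) without library 3 with adult supernatant and also lost without library 2 or 3 with neonatal supernatant (adjusted p = 0.0724 and 0.071). Trim21 was lower by -1.59 ± 0.31 and -2.99 ± 0.31, and Trim26 by -0.52 ± 0.10 and -0.78 ± 0.10. Trim25 passed as lower in neonatal cells (-1.31 ± 0.27) and not in adult cells (-0.55 ± 0.27, adjusted p = 0.15).

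In media, without any T cell product, 10 members differed between neonatal and adult cells: 3 were higher in neonatal cells and 7 lower, where 16.7% and 12.0% of all genes were. This count fell to 6 without library 1 or without library 2 of adult cells in media, and to 2 higher and 0 lower without both high media libraries. Under quantile normalization it was 3 higher and 3 lower. Trim59 was higher by 1.05 ± 0.16 (adjusted p = 1.68e-04), with 80.6, 67.0 and 65.1 CPM against 42.3, 26.0 and 36.4 CPM and no overlap. Trim16 was higher by 0.48 ± 0.10 (adjusted p = 0.00124), also without overlap. Trim28 was higher by 0.31 ± 0.07 (adjusted p = 0.00364), with 168, 162 and 168 CPM against 135, 128 and 139 CPM. Trim7 was lower by -0.60 ± 0.13 (adjusted p = 0.00304), with 16.6, 16.6 and 19.0 CPM against 25.5, 28.6 and 24.8 CPM. Trim28 and Trim7 missed the threshold without both high media libraries (adjusted p = 0.0552 and 0.0573). Trim21 was lower by -0.85 ± 0.31 with an adjusted p of 0.0487 that rose to as much as 0.216 when single libraries were left out. Marker lists also differed with cell age in media. The 4 measured Schwann markers summed to 7.21 to 8.44 CPM in adult and 40.1 to 124 CPM in neonatal cells, with 2 called higher. The 5 endothelial markers summed to 57.4 to 61.8 and 27.9 to 34.0 CPM, with 4 called lower. Of 9 macrophage markers 5 were lower in neonatal cells. The part of other cells in the TRIM differences was not tested.

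The question of whether neonatal cells answer a supernatant otherwise than adult cells is put by the interaction, the response of neonatal cells minus that of adult cells. It was called for 1 member with adult supernatant and for 1 with neonatal supernatant, higher in both (3.00% and 0.493% of all genes), and for none as lower (1.55% and 0.361% of all genes). With neonatal supernatant the count ran from 0 to 4 when single libraries were left out. It was 4 without library 3 of adult cells with neonatal supernatant (Trim11, Trim12a, Trim12c and Trim16) and 2 without library 1 or 2 of neonatal cells with adult supernatant (Trim11 and Trim16). With adult supernatant it was 2 without library 2 of adult cells with adult supernatant (Trim11 and Trim47) or library 3 of neonatal cells in media (Trim11 and Trim44). The member called in both was Trim11, a ligase known from the clearance of misfolded proteins. It stood at 70.2, 81.0 and 80.5 CPM in adult cells in media, at 52.9, 53.3 and 54.1 CPM with adult supernatant (-0.53 ± 0.07, adjusted p = 4.93e-06) and at 49.6, 52.8 and 54.4 CPM with neonatal supernatant (-0.56 ± 0.07, adjusted p = 9.16e-06). In neonatal cells it stood at 69.2, 61.2 and 66.5 CPM in media, 65.0, 68.6 and 69.6 CPM with adult supernatant (0.05 ± 0.07) and 63.0, 60.9 and 62.4 CPM with neonatal supernatant (-0.08 ± 0.07), neither past the threshold. All 6 adult-cell libraries with a supernatant lay below all 3 in media, while in neonatal cells either supernatant overlapped media. The difference in response was 0.58 ± 0.10 with adult supernatant (adjusted p = 0.00247), which passed under every alternative tried without a limit of size. With neonatal supernatant it was 0.48 ± 0.10 (adjusted p = 0.0282), and it missed the threshold without library 2 or 3 of adult cells in media, library 1 or 2 of adult cells with neonatal supernatant, library 2 of neonatal cells in media or library 1 of neonatal cells with neonatal supernatant (adjusted p = 0.052 to 0.0681). Both differences use the same media libraries. Trim16 came next with neonatal supernatant, at 0.58 ± 0.13 (adjusted p = 0.0528), and Trim32 next with adult supernatant, at 0.42 ± 0.12 (adjusted p = 0.0661). For 3 of the risers the difference between cell ages with adult supernatant was 0.71 ± 0.43 for Trim21, 0.53 ± 0.39 for Trim25 and -0.42 ± 0.97 for Trim30a, with standard errors that leave room for sizeable differences.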

How the data were processed

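Per the submitters' processing notes, reads were handled with kallisto and limma 3.56.2 and the build was GRCm39. Of kallisto no version is stated there. The authors deposited log2 CPM for 14391 genes in 18 libraries, with no raw counts. The lowest value, -2.98 (0.127 CPM), stands for a count of 0 with an offset of 2 reads, so changes of scarce genes are understated. All rows reach 1 CPM in at least 3 libraries. Depth (12.7 to 17.8 M reads) was estimated as the total at which the most low values fall on whole reads to within 0.02 reads. That share was 8.41% to 17.6% by library, beside 5.45% to 9.75% at the best other total, so most low values were not whole and the depths are approximate. At this depth 3 reads are 0.169 to 0.237 CPM before the offset is added, which covers counting error only.

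Groups follow the labels. A linear model of all genes was made in limma 3.58.1 and R 4.3.3 (trended eBayes, two-sided, 12 residual and 4.59 prior degrees of freedom) on all 18 libraries, with calls where the Benjamini-Hochberg adjusted p over 14391 genes was under 0.05. The fit was tested on simulated data. Reported CPM are 2 to the power of the deposited value. The members and lists were chosen with earlier results of these data known. Trim14, Trim21, Trim25, Trim30a and Trim34a were named whatever their values. The others named were up to 12 members called against media with a log2 change of at least 1 and a group mean of at least 2 CPM, up to 4 called for cell age in media, those called in an interaction, and members named for their role. Alternatives were TMM and quantile scaling, a minimum of 5 CPM in 3 libraries, pseudocounts of 0.1 and 1 CPM, no variance trend, array weights, only the groups compared, a replicate block, a log2 limit of 1, and leaving out libraries. Promoters and gene names come from RefSeq (GRCm38.p6), and transcript identities from blastn 2.17.0 on GENCODE M21 transcripts. Figures were drawn with matplotlib 3.10.9.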

Additional observations from a re-analysis of the deposited data

Results flagged for a closer look

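The response of Trim11 differed between cell ages with both supernatants, by the test of the difference itself. The log2 response of neonatal minus adult cells was 0.58 with adult supernatant (limma adjusted p = 0.00247) and 0.48 with neonatal supernatant (limma adjusted p = 0.0282), with 3 libraries in each group. In adult cells all 6 libraries with a supernatant lay below all 3 in media, while in neonatal cells either supernatant overlapped media. The difference with neonatal supernatant missed the threshold without any single one of 6 libraries and under 3 other alternatives (adjusted p = 0.052 to 0.0873). In media Trim11 was already lower in neonatal than in adult cells, by -0.23 ± 0.07 (limma adjusted p = 0.0149), and those media libraries enter both differences. The cause was not tested.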

How the results depend on the processing

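Over the 9 comparisons the members made 148 calls, and 95 of them kept direction and side of the threshold under every alternative tried other than the log2 limit of 1, which was applied to counts only. Over all calls and those alternatives, 3820 values stayed past the threshold, 291 fell short of it and 0 changed sign. Leaving out single libraries, the number of members called ran from 32 to 36 and from 13 to 22 in adult cells with adult and neonatal supernatant, from 29 to 35 and from 5 to 9 in neonatal cells with adult and neonatal supernatant, from 12 to 20 and from 18 to 24 between the supernatants in adult and neonatal cells, from 6 to 12 for cell age in media, and from 1 to 2 and from 0 to 4 for the interactions with adult and neonatal supernatant. With a log2 limit of 1 the counts were 23 and 4 in adult cells with adult and neonatal supernatant, 5 in neonatal cells with neonatal supernatant, 10 between the supernatants in adult cells, 4 for cell age in media and 0 for both interactions, since the limit removes small changes. Neonatal cells with neonatal supernatant gave 5 calls under quantile normalization and 4 with a pseudocount of 1 CPM. Cell age in media gave 6 under quantile normalization, 6 with only the groups compared and 2 without both media libraries of high interferon level. The interaction with adult supernatant gave 2 with a pseudocount of 1 CPM, 2 with no variance trend, 3 with array weights and 2 without both high media libraries. The interaction with neonatal supernatant gave 2 with the 5 CPM filter, 2 with array weights, 0 with no variance trend, 0 with only the groups compared and 0 without both high media libraries. For these the cause was not tested. Replicate numbers are shared across groups, but same-numbered libraries did not deviate together (correlations of deviations from -0.083 to 0.081), so they share only a number. With the replicate block 2 members were called in the interaction with neonatal supernatant (Trim11 and Trim16), and the counts were 35 and 19 in adult cells and 33 and 10 in neonatal cells, with adult and neonatal supernatant. Depth limits the members that lie near or under 3 reads in media, such as Trim30c, Trim50 and Trim55.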
